A study of Mus musculus with 50 samples.

Results

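Pth (ENSMUSG00000059077), Gcm2 (ENSMUSG00000021362) and Casr (ENSMUSG00000051980) are 3 genes that mark the parathyroid gland, and they were followed through 50 RNA-sequencing libraries of mouse thyroid. They were taken by name from a table of 52636 genes and matched by Ensembl ID, and all 3 passed the filter on low counts in every fit. The study gave mice antibodies that block Notch ligands or receptors and compared their thyroids with those of mice given an isotype control. All mice were male C57BL/6, aged 10 to 12 weeks in the series text and 10 to 14 weeks in the sample text, and each received 1 intraperitoneal injection. The control, RW, was an antibody against ragweed at 40 mg/kg. The ligand-blocking pair, aJ1aJ2, was given at 20 mg/kg against Jag1 and 20 mg/kg against Jag2. The receptor-blocking pair, aN1aN2, was given at 5 mg/kg against Notch1 and 10 mg/kg against Notch2, and aN1aN2aN3 added 20 mg/kg against Notch3. RW, aJ1aJ2 and aN1aN2 were each sampled at 15 hours and at 5 days. The 7-day libraries came as 2 sets. RW and aJ1aJ2 made up the first, and aJ1aJ2 and aN1aN2aN3 the second, which has its own run of sample IDs. The IDs of aN1aN2 at 15 hours run on into those of RW at 5 days, not those of RW at 15 hours. Each of these 10 groups had 5 libraries. The series text also describes injections of thyroid hormones T4 and T3 in part of the study, and no label says which mice received them.

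The parathyroid glands of the mouse lie against or within the thyroid lobes, so a dissected thyroid can carry them along. Their chief cells read blood calcium through the calcium-sensing receptor, a G protein-coupled receptor encoded by Casr, and release parathyroid hormone, encoded by Pth, when calcium falls. Gcm2 encodes the transcription factor on which the gland's development and the survival of its cells depend. Casr is also active in the calcitonin-producing C cells of the thyroid and in kidney, whereas Pth and Gcm2 are much more restricted to the parathyroid. In bulk tissue, fewer parathyroid cells and less RNA per cell cannot be told apart, and that holds for every level below.

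The stretch just before each gene's start is shown because the 3 genes are read from the same cell type and because GATA3 and GCM2 are regulators known in it. All 3 lie on the minus strand of the mouse reference (RefSeq, GRCm38.p6), at chr7:113388574-113388823 for Pth, chr13:41109989-41110238 for Gcm2 and chr16:36562135-36562384 for Casr. Each sequence is the 250 bases before the start, 5′ to 3′, and capitals mark TTATCT, which is the GATA element AGATAA read on the other strand.
Pth: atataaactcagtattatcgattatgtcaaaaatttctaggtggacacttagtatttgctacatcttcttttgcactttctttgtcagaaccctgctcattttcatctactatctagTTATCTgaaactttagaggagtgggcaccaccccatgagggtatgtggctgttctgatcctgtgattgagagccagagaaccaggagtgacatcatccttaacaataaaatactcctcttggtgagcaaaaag
Gcm2: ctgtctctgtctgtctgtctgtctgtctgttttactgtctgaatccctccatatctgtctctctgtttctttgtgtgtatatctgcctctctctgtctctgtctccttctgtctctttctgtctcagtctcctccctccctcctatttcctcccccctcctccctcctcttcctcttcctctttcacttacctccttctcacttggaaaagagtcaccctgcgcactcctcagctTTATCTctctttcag
Casr: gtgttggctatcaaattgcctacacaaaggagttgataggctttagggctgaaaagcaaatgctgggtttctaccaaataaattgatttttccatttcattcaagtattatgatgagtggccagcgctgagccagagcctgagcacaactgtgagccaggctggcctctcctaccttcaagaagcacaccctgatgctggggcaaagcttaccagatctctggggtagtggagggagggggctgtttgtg
The GATA element stood 133 bases before the start of Pth and 15 bases before that of Gcm2, with no match in the Casr stretch. It occurred in 9.99% of 32851 mouse promoters of the same length. The Gcm core GCGGGT was in 10.5% of those promoters, and 0 of the 3 genes held it on either strand in this stretch. The GC content was 39.2% before Pth, 48.8% before Gcm2 and 48.8% before Casr, against a median of 52.4% over all these promoters. Letters that match are a description of the sequence and no evidence of binding.

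The 50 libraries held from 15271242 to 52835846 counts. Levels are given as CPM, counts scaled to the library's size, with library sizes scaled by the trimmed mean of M-values (TMM). Tg, the thyroglobulin gene of the thyroid follicle, ranged from 7968 to 504107 CPM, and the follicle share was low throughout the second 7-day set. On the unscaled CPM scale the summed level of 9 follicle genes there had medians of 20303 in aJ1aJ2 and 46393 in aN1aN2aN3, against group medians of 221481 to 387481 elsewhere. Outside the set, RW replicate 3 (4549) and aJ1aJ2 replicate 3 (24090) at 5 days were as low or lower. Replicates are separate samples by their titles, and no label says more of their origin, so the p-values measure the spread between these samples.

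Counts of all 3 genes were present in all 50 libraries, in widely varying amounts. Pth had at least 45 counts in every library. It ran from 2.54 to 54361 CPM with a median of 6306 CPM, a 21371-fold range. At its highest, in replicate 2 of aJ1aJ2 in the second 7-day set, it took 7.68% of all counts in the library (exact 95% binomial interval 7.66 to 7.69%, counting error only). Gcm2 ran from 0.113 to 171 CPM with a median of 70.8 CPM. Casr ran from 8.10 to 390 CPM with a median of 134 CPM. Set side by side per length, as the authors' FPKM values, the median levels were 2009 FPKM for Pth, 7.60 FPKM for Gcm2 and 1.88 FPKM for Casr.

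Most of that variation lay between libraries of the same group. With group means removed, the pooled SD of log2(CPM + 0.5) was 2.81 for Pth, rank 5 from the top among 21546 genes. It was 2.20 for Gcm2 (rank 92) and 1.10 for Casr (rank 900), against a median of 0.340 over all genes. Among the 3835 genes with a mean of at least 50 CPM the ranks were 5, 82 and 238. The SD of Pth within a group ran from 0.35 in RW of the first 7-day set to 4.96 in aJ1aJ2 of the same set. The steadiest and the least steady group for this gene thus belonged to the same comparison. In the groups that hold the low libraries described next, the SD of Pth was at least 3.92, and in all other groups at most 1.17.

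By Gcm2, 5 libraries stood apart, with fewer than 20 Gcm2 counts each, and the next library up held 582. They were RW replicates 3 and 4 and aJ1aJ2 replicate 4 at 5 days, aJ1aJ2 replicate 1 of the first 7-day set and aJ1aJ2 replicate 3 of the second. They belong to 4 groups and to both control and antibody mice. Gcm2 had 8, 18, 5, 2 and 5 counts there, in that order. The lowest, 2 counts, equals 0.113 CPM with an exact 95% Poisson interval of 0.0137 to 0.408 CPM (counting error only). The step from these libraries to the others was 24-fold for Gcm2, from 0.704 to 16.9 CPM.

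Pth was at its lowest in the same 5 libraries. Its levels there were 40.3, 39.2, 10.6, 2.54 and 73.5 CPM in the order given, and the next library held 913 CPM, 12.4-fold more than the highest of them. No library low in Gcm2 was high in Pth, and Pth reached 0 in none of them. Casr separated these libraries less clearly. It measured 86.1, 29.9, 28.8, 31.1 and 8.10 CPM in them. Of the 5 values, 4 lay above the lowest of the other 45 libraries, 25.2 CPM, but that library belonged to the second 7-day set. Outside that set the lowest of the others was 39.3 CPM, and 29.9, 28.8 and 31.1 CPM lay below it. Within the second set 8.10 CPM lay below the 25.2 CPM. Between the fifth and sixth lowest values the step for Casr over all 50 libraries was 1.27-fold, from 31.1 to 39.3 CPM. Counts of Casr per Gcm2 count were 41.2 to 275 in the 5 libraries, against 0.494 to 4.06 in the other 45. The 5 were chosen for few Gcm2 counts, the denominator, so the choice itself tends to raise this ratio.

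Other genes of the gland, and of its neighbours, were read in the same 5 libraries. Chga, which encodes the secretory granule protein chromogranin A, was at 14.1 to 53.9 CPM there and at 967 to 16630 CPM in the other 45. Kl, the gene of the FGF23 co-receptor klotho, was at 2.08 to 3.68 CPM against 43.3 to 540 CPM. Calca, which encodes calcitonin in C cells, was at 2582 to 13104 CPM in 4 of the 5, well inside the range of the others (4.30 to 22887 CPM). The exception was RW replicate 3 at 5 days, where Calca was 68.9 CPM, Tg 7968 CPM and 9 skeletal muscle genes took 13.9% of counts. The converse also occurred. In aJ1aJ2 replicate 3 at 5 days Pth was 9383 CPM while Calca was 4.30 CPM, its lowest value of all libraries. Tg was also low there, at 25263 CPM, and the muscle genes took 10.4% of counts.

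**Figure D1:**
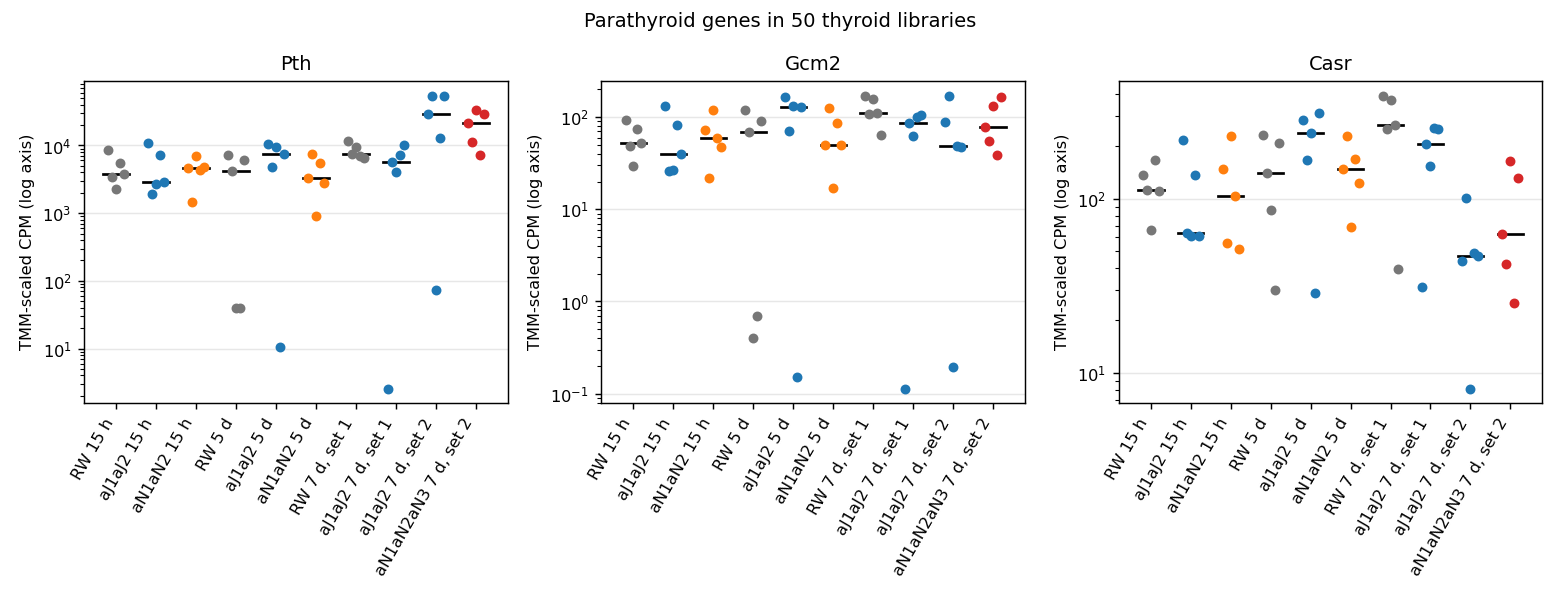
TMM-scaled CPM of Pth, Gcm2 and Casr (log axes) in the 10 groups, 1 point per library, with the group median as a bar. For Pth and Gcm2, 5 points in 4 groups lie far below the rest, at 2.54 to 73.5 CPM for Pth, whereas Casr shows no such gap.

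At 15 hours the 3 genes were at like levels with and without the antibodies. In RW the Pth levels were 8686, 3433, 2256, 5437 and 3757 CPM in replicates 1 to 5. After aJ1aJ2 they were 10718, 1936, 2681, 7115 and 2873 CPM, and after aN1aN2 4576, 1445, 7052, 4290 and 4726 CPM. All 3 groups overlapped widely, and aJ1aJ2 held both the highest value and a value below every RW library.

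Gcm2 at 15 hours was 93.4, 48.5, 29.2, 74.6 and 52.3 CPM in RW. The aJ1aJ2 libraries had 133, 26.1, 26.7, 83.0 and 40.2 CPM of it, and the aN1aN2 libraries 71.8, 22, 120, 59.6 and 47.5 CPM. In RW and in aJ1aJ2 the order of the replicates was that of Pth, with replicate 1 highest and replicates 2 and 3 lowest. Casr at that time was 137, 112, 66.0, 168 and 110 CPM in RW. It was 217, 63.4, 61.0, 136 and 60.9 CPM after aJ1aJ2 and 147, 55.9, 230, 104 and 51.6 CPM after aN1aN2. The RW range lay inside that of either antibody.

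None of the 3 genes passed the test at 15 hours. For aJ1aJ2 against RW, 0.573% of the 18513 genes tested were called by edgeR's quasi-likelihood test (Benjamini-Hochberg adjusted p below 0.05), with 0.346% higher and 0.227% lower, and 0 of the 3 genes were. The groups did not overlap for 1.72% of genes, and overlapped for these 3. Pth averaged 5065 ± 3756 CPM after aJ1aJ2 and 4714 ± 2495 CPM in RW (SD, n = 5 each), a log2 fold change of 0.10 with an SE of 0.53 and an edgeR adjusted p of 1.00. The changes were 0.05 (SE 0.51) for Gcm2 and −0.14 (SE 0.46) for Casr. An interval of 2 SE each way ran from −0.96 to 1.16 for Pth, so changes of about that size in either direction were not detectable. For aN1aN2 against RW, 1.68% of genes were called (0.880% higher, 0.799% lower, 5.22% without overlap) and again 0 of the 3. Pth was at −0.10 (SE 0.53, edgeR adjusted p = 0.964), Gcm2 at 0.10 (SE 0.51) and Casr at −0.01 (SE 0.46). The signs of Pth and Gcm2 after aJ1aJ2, and of Casr after aN1aN2, turned under other settings. The FPKM table was scaled in 2 blocks, with aN1aN2 at 15 hours in another block than RW. The sample IDs of these groups also came from separate runs. Block, run of IDs and antibody cannot be told apart in that comparison.

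At 5 days RW and aJ1aJ2 each held low libraries, and the intervals for Pth and Gcm2 were the widest of all the comparisons with RW. Pth in RW was 7255, 4189, 40.3, 39.2 and 6038 CPM. It was 10543, 4771, 9383, 10.6 and 7425 CPM after aJ1aJ2, and 3300, 7495, 913, 5554 and 2767 CPM after aN1aN2. The aN1aN2 group had no library as low as those of the other groups, and aJ1aJ2 had 3 libraries above every RW library.

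Gcm2 at 5 days was 118, 68.8, 0.407, 0.704 and 90.9 CPM in RW, with the same replicates low as for Pth. It was 163, 69.8, 131, 0.150 and 128 CPM after aJ1aJ2 and 49.9, 125, 16.9, 86.8 and 49.3 CPM after aN1aN2. Casr was 233, 141, 86.1, 29.9 and 209 CPM in RW. The aJ1aJ2 libraries had 284, 166, 240, 28.8 and 309 CPM of Casr and the aN1aN2 libraries 147, 230, 68.4, 170 and 123 CPM. Groups overlapped for every gene.

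For aJ1aJ2 against RW at 5 days the log2 fold changes were 0.87 for Pth (SE 1.35, edgeR adjusted p = 0.810), 0.82 for Gcm2 (SE 1.30) and 0.55 for Casr (SE 0.59), and 0 of the 3 genes were called against 0.179% of the 18434 genes tested (0.0759% higher, 0.103% lower). The groups did not overlap for 3.75% of genes. Means of Pth were 6427 ± 4201 CPM after aJ1aJ2 and 3512 ± 3353 CPM in RW (SD, n = 5 each). Without the 3 low libraries of that time, which were recognised by their Gcm2 counts, the changes were 0.45 (SE 0.61) for Pth, 0.40 (SE 0.53) for Gcm2 and 0.35 (SE 0.36) for Casr.

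For aN1aN2 against RW at 5 days the log2 fold changes were 0.18 for Pth (SE 1.34, edgeR adjusted p = 0.979), 0.22 for Gcm2 (SE 1.29) and 0.07 for Casr (SE 0.59). edgeR called 0 genes of any kind in this comparison, or 0%, with 2.10% of genes not overlapping between the groups, 1848 genes at an unadjusted p below 0.05 and 467 called by DESeq2. The signs were not stable. Leaving out each library in turn gave −0.18 to 0.62 for Pth, −0.16 to 0.69 for Gcm2 and −0.19 to 0.33 for Casr. Without the low libraries of that time, RW replicates 3 and 4 and aJ1aJ2 replicate 4, all 3 genes were lower after aN1aN2. The values were −0.56 for Pth (SE 0.57), −0.51 for Gcm2 (SE 0.50) and −0.41 for Casr (SE 0.34), with edgeR adjusted p from 0.528 to 0.618.

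For Pth, the first 7-day set held the highest and steadiest RW levels of the 3 times, and it had 1 low library after aJ1aJ2. Pth in RW was 11751, 7519, 9416, 6888 and 6575 CPM. After aJ1aJ2 it was 2.54, 5630, 4000, 7343 and 10038 CPM, with 3 of the 5 values below every RW value. Gcm2 was 168, 109, 156, 109 and 63.3 CPM in RW and 0.113, 85.4, 62.2, 99.1 and 107 CPM after aJ1aJ2. All 5 aJ1aJ2 values lay below the RW mean, though the groups overlapped.

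Casr in RW of the first 7-day set was 390, 250, 370, 264 and 39.3 CPM, where replicate 5 lay far below the other 4. After aJ1aJ2 it was 31.1, 206, 155, 254 and 252 CPM. The log2 fold changes were −0.64 for Pth (SE 1.06, edgeR adjusted p = 0.805), −0.78 for Gcm2 (SE 0.86) and −0.55 for Casr (SE 0.61). None of the 3 was called, and edgeR called 0 of 16954 genes (0%), with 3.59% not overlapping between the groups, 1968 at an unadjusted p below 0.05 and 473 called by DESeq2. Without replicate 1 of aJ1aJ2 the differences were −0.32 (SE 0.35), −0.45 (SE 0.28) and −0.27 (SE 0.50).

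**Figure D2:**
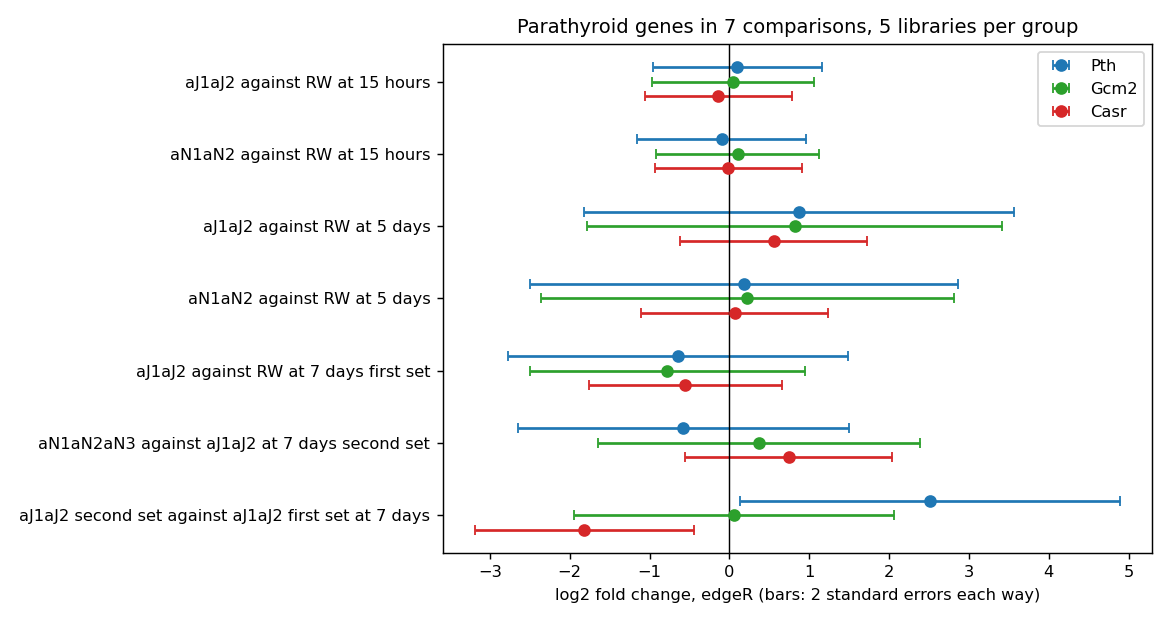
Log2 fold changes of Pth, Gcm2 and Casr by edgeR in 7 comparisons of 5 libraries each, with bars of 2 standard errors each way. The bars cross 0 for every gene in the 5 comparisons with RW and in the comparison of antibodies in the second set. Those of Pth and Casr leave it, in opposite directions, between the sets.

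The antibody effects were also compared between times. The change of the aJ1aJ2 effect from 15 hours to 5 days was 0.77 for Pth (SE 1.54) on the log2 scale, and from 15 hours to the first 7-day set it was −0.75 (SE 1.54). For aN1aN2 the change from 15 hours to 5 days was 0.28 (SE 1.54). Across the 3 genes and 3 contrasts, edgeR adjusted p ran from 0.860 to 0.994. All of these intervals are wide, so no change of an effect with time was detectable at this spread.

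By group median of TMM-scaled CPM, the second 7-day set had the highest Pth and the lowest Casr of the series. Pth was 28751, 54361, 73.5, 12880 and 53105 CPM after aJ1aJ2 and 21552, 11181, 33112, 7300 and 29285 CPM after aN1aN2aN3. Casr was 43.6, 100, 8.10, 48.7 and 46.7 CPM after aJ1aJ2 and 62.9, 42.1, 164, 25.2 and 131 CPM after aN1aN2aN3. Gcm2 was 88.3, 171, 0.197, 48.0 and 47.2 CPM after aJ1aJ2 and 78.9, 55.0, 133, 38.7 and 166 CPM after aN1aN2aN3. The highest of these Gcm2 values, 171 CPM, is close to the highest value outside the set, 168 CPM. As unscaled CPM the highest values were 241 in the set and 166 outside it, and as FPKM 21.7 and 20.1.

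Between the antibodies of the second set, 19.6% of 18450 genes were called (9.19% higher, 10.4% lower after aN1aN2aN3), and 0 of the 3 were among them. The aN1aN2aN3 libraries differed from aJ1aJ2 by −0.58 for Pth (SE 1.04, edgeR adjusted p = 0.723), 0.37 for Gcm2 (SE 1.01) and 0.74 for Casr (SE 0.65). Pth turned to 0.89 as a difference of mean log2 values (exact permutation test, p = 0.889), where the low replicate 3 of aJ1aJ2 weighs more. Without that library the edgeR values were −0.90 (SE 0.53), 0.05 (SE 0.50) and 0.47 (SE 0.53). Calca, measured beside them, was 4758 to 13104 CPM after aJ1aJ2 and 16973 to 22887 CPM after aN1aN2aN3, a log2 difference of 1.06 (SE 0.29, edgeR adjusted p = 0.0259). Calca did not overlap between these groups, as was true of 15.0% of genes, and the 3 parathyroid genes did.

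The same antibody at the same time in both sets showed the split between the genes. Casr averaged 49.5 ± 33.0 CPM in aJ1aJ2 of the second set and 180 ± 92.4 CPM in the first (SD, n = 5 each), and it fell by 1.82 on the log2 scale (SE 0.68, edgeR adjusted p = 0.0273, lower than the first set's mean in 5 of 5 libraries). Pth averaged 29834 ± 24070 CPM against 5403 ± 3756 CPM, a log2 difference of 2.52 (SE 1.19) that missed the threshold with an edgeR adjusted p of 0.0729. Gcm2 averaged 70.9 ± 63.9 CPM against 70.7 ± 42.9 CPM, a log2 difference of 0.06 (SE 1.00, edgeR adjusted p = 0.966). With 64.0% of 19570 genes called between the sets (34.1% higher and 29.9% lower in the second), 1 call among 3 genes is no sign of anything particular to them. The summed follicle genes had medians of 20303 and 322998 unscaled CPM in these groups, and the part of that difference in the Pth and Casr values was not tested.

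These calls hung on few libraries. The Casr call was lost without replicate 4 or 5 of the first set's aJ1aJ2, or without replicate 1, 3 or 5 of the second's, with edgeR adjusted p from 0.0506 to 0.0573. Pth passed the threshold without replicate 1 of the first set (2.19, edgeR adjusted p = 0.0448) and without replicate 3 of the second (2.84, edgeR adjusted p = 0.0193), the low libraries of the groups. Without every low library the differences were 2.51 for Pth (SE 0.51, edgeR adjusted p = 0.000353), 0.05 for Gcm2 (SE 0.45) and −1.81 for Casr (SE 0.60, edgeR adjusted p = 0.0162). The groups, now of 4 libraries each, then did not overlap for Pth or for Casr, and 57.2% of 19825 genes were called. The share of all genes without overlap was not computed for these smaller groups. With 5 libraries per group, where separation is harder to reach, it was 43.6%. The libraries left out were chosen by the Gcm2 level, so these p-values are a description.

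Ratios of counts compare 2 of the genes within the same library. Pth counts per Gcm2 count ran from 54.1 to 104, with a median of 68.8, in the 36 libraries outside the second set that had at least 20 Gcm2 counts. In the 9 such libraries of the second set the ratio was 177 to 1124, with a median of 268. These ranges did not overlap. Casr counts per Gcm2 count ran from 0.621 to 4.06 (median 2.27) outside the second set and from 0.494 to 1.23 (median 0.789) in it. Per length, as ratios of FPKM, the medians of Pth over Gcm2 were 201 and 785 and those of Casr over Gcm2 0.291 and 0.101.

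At 15 hours, at 5 days and in the first 7-day set, the groups overlapped in this ratio. The median of Pth per Gcm2 count was 72.8 in RW, 80.8 in aJ1aJ2 and 65.6 in aN1aN2 at 15 hours. At 5 days it was 61.5 in RW, 68.3 in aJ1aJ2 and 59.8 in aN1aN2, and in the first 7-day set 69.2 in RW and 65.9 in aJ1aJ2. In the second set it was 326 in aJ1aJ2 and 203 in aN1aN2aN3 over all 5 libraries each, and these groups overlapped narrowly, at 268 and 273. The highest ratio of the series, 1124, belonged to replicate 5 of aJ1aJ2 in the second set, where Pth was 53105 CPM beside 47.2 CPM of Gcm2.

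Length of the transcript moved with the set. Annotated exons (GENCODE M21) cover 710 bases of Pth, 3304 of Gcm2 and 4718 of Casr. When genes were divided by exon length into 5 bins of equal number, the median log2 difference of aJ1aJ2 between the second and the first set was 1.11 in the shortest bin and then 0.48, 0.10, −0.28 and −0.65 towards the longest. Pth lies in bin 1 from the shortest, Gcm2 in bin 3 and Casr in bin 4, and their differences of 2.52, 0.06 and −1.82 follow the same order.

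A length balance was therefore set for each library, the log2 level of the bin of shortest genes minus that of the longest. It was 0.709 to 1.28 in the 10 libraries of the second set and −0.206 to 0.302 in the other 40. RW replicate 5 of the first 7-day set had the highest balance of those 40, 0.302, and it also had their lowest ratio of Casr to Gcm2 among libraries with at least 20 Gcm2 counts, 0.621, and the highest of Pth to Gcm2, 104. Replicate 5 of aN1aN2 at 15 hours was next, with a balance of 0.152, 1.09 Casr counts and 99.5 Pth counts per Gcm2 count. A high ratio also occurred without a high balance, since replicate 3 of aJ1aJ2 at 15 hours had 101 Pth counts per Gcm2 count at a balance of −0.063. The part of length in the difference between the sets was not tested.

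**Figure D3:**
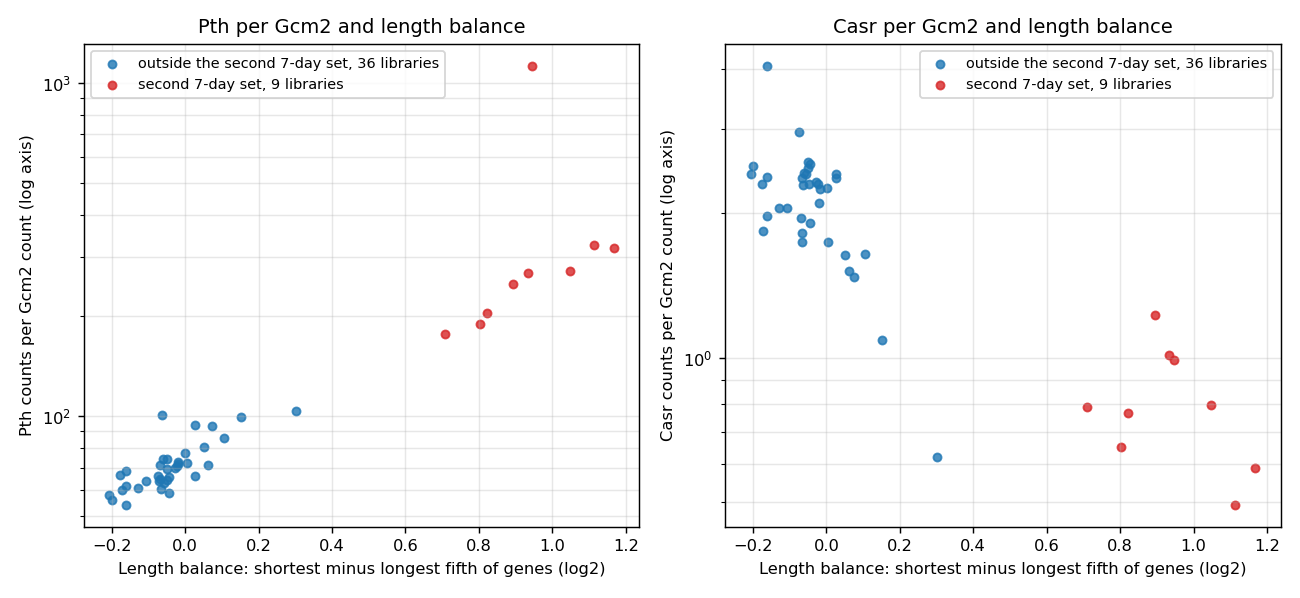
Counts of Pth (left) and of Casr (right) per count of Gcm2, on log axes, against the length balance of each of the 45 libraries with at least 20 Gcm2 counts. The 9 libraries of the second 7-day set lie at a balance of 0.709 to 1.17 with 177 to 1124 Pth counts per Gcm2 count, and the 36 others lie at or below 0.302 with 54.1 to 104.

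Ordered by median, the groups formed a continuous series for each gene. Pth was lowest in aJ1aJ2 at 15 hours (median 2873 CPM), then in aN1aN2 at 5 days (3300), RW at 15 hours (3757), RW at 5 days (4189), aN1aN2 at 15 hours (4576), aJ1aJ2 at 7 days in the first set (5630), aJ1aJ2 at 5 days (7425) and RW at 7 days (7519). The second set came last, with 21552 CPM in aN1aN2aN3 and 28751 CPM in aJ1aJ2. Every group overlapped with its neighbour in this order.

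Gcm2 medians ran from 40.2 CPM in aJ1aJ2 at 15 hours to 128 CPM in aJ1aJ2 at 5 days, and the groups of the second set stood second (48.0 CPM in aJ1aJ2) and seventh (78.9 CPM in aN1aN2aN3). Casr medians ran from 46.7 CPM in aJ1aJ2 and 62.9 CPM in aN1aN2aN3 of the second set to 264 CPM in RW of the first. Neighbouring groups overlapped throughout for both genes. The second set was thus at the top of the order for Pth, with its groups apart from each other for Gcm2. It was at the bottom for Casr, though aJ1aJ2 at 15 hours came next at 63.4 CPM, close to aN1aN2aN3. On other scales aN1aN2aN3 stood above that group for Casr. Its medians were 82.9 unscaled CPM and 1.00 FPKM, against 64.6 unscaled CPM and 0.976 FPKM.

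Across libraries the 3 genes went up and down together. Because the low libraries and the second set form clusters of their own, the relations are given within clusters, as deviations of log2(CPM + 0.5) from group means. In the 36 libraries outside the second set, Pth and Gcm2 had a Pearson r of 0.962 and a Spearman rho of 0.951 (permutation p = 1e-05, the smallest that 100000 permutations within groups can give, adjusted p = 2.33e-05 over 7 relations). Without the 2 libraries farthest from the median r was 0.946. Pth and Casr had an r of 0.706 (rho 0.786) and Gcm2 and Casr an r of 0.839 (rho 0.900), each with the same adjusted permutation p, and 0.672 and 0.819 without the 2 farthest libraries.

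The 9 libraries of the second set gave weaker evidence. Pth and Gcm2 had an r of 0.745 (rho 0.733, permutation p = 0.0463, adjusted 0.108) and Pth and Casr an r of 0.787 (rho 0.783, permutation p = 0.0214, adjusted 0.0751). Gcm2 and Casr had an r of 0.887 (rho 0.750, permutation p = 0.00385, adjusted 0.0269). Without the 2 farthest libraries r was 0.554, 0.808 and 0.842, so the first of these relations leaned on those libraries. Within the scaling blocks of the FPKM table, r of Pth with Gcm2 was 0.946 in the 19 libraries of the first block outside the second set and 0.975 in the 17 of the other block.

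Of Pth and Casr with Calca of the C cells and Tg of the follicle, no relation passed the threshold as deviations from group means. In the 36 libraries Pth had an r of −0.0670 with Calca (rho −0.0345, permutation p = 0.663) and −0.0847 with Tg (rho −0.0564, permutation p = 0.654). Casr had 0.00240 with Calca (rho −0.00438, permutation p = 0.984) and 0.189 with Tg (rho 0.231, permutation p = 0.199). The adjusted values were at least 0.342, by r or by rho. In the 9 libraries of the second set Pth had an r of 0.635 with Calca (rho 0.683, permutation p = 0.0790, adjusted 0.138) and 0.263 without the 2 farthest libraries. With group means not removed, over the levels of all 50 libraries, each of these relations passed by rho. Pth had a rho of 0.331 with Calca (adjusted permutation p = 0.0187) and −0.387 with Tg (0.0111). Casr had −0.402 with Calca (0.00889) and 0.335 with Tg (0.0187). By r only those of Casr passed, at −0.304 and 0.407 (adjusted permutation p = 0.0433 and 0.00527). Gcm2 was not among the genes set against Calca and Tg. Gfra4, the gene of a co-receptor of Ret, is another gene of the C cell list. Its rho with Pth was 0.596 over the deviations in all 50 libraries, whereas Ret was at −0.133. Gfra4 is named here after its value was seen.

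**Figure D4:**
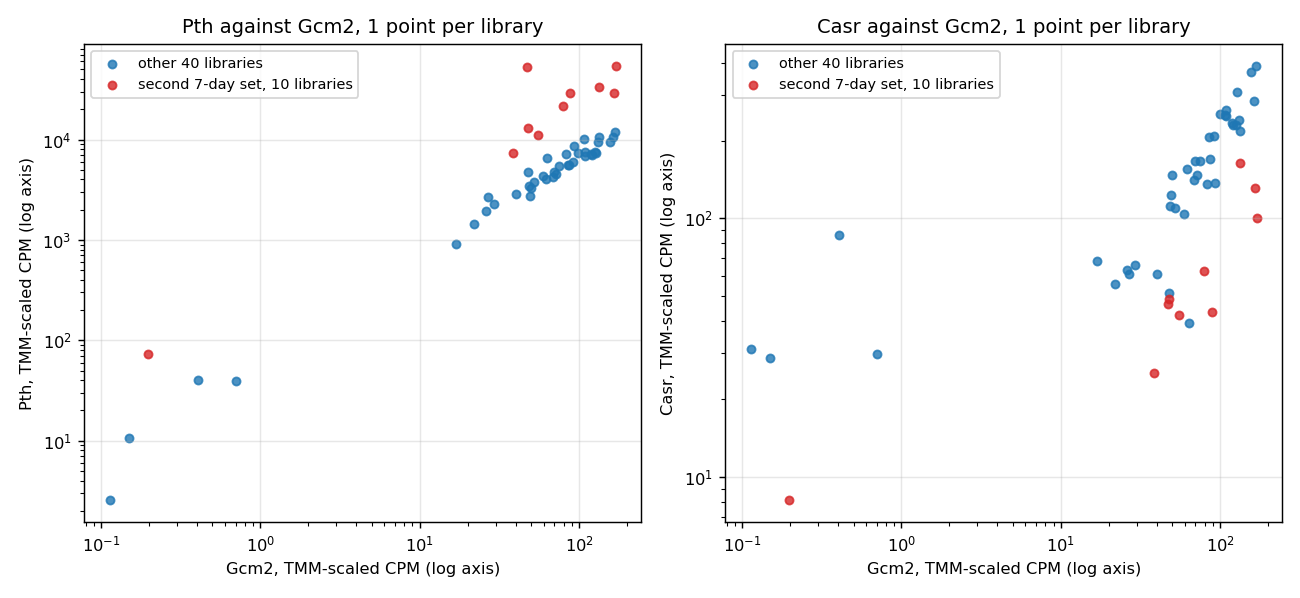
Pth (left) and Casr (right) against Gcm2, in TMM-scaled CPM on log axes, 1 point for each of the 50 libraries. Outside the second set, Pth rises with Gcm2 along a narrow band. The 5 libraries at the left keep 8.10 to 86.1 CPM of Casr, and the lowest of these values belongs to the second set. The second set lies above that band for Pth. For Casr its libraries lie low for their Gcm2, with some of the other libraries among them.

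The genes most like each member were found by Spearman rho over the deviations in all 50 libraries, among 21546 genes. Low libraries weigh in these values, which are a description. For Pth they were Rhcg, an ammonium transporter gene (0.984), Chga (0.973), Gcm2 (0.970), Spink8, of a serine protease inhibitor family (0.968), Kl (0.956), Rasal1, a Ras GTPase-activating protein gene (0.95), Aldh1a3, which makes retinoic acid (0.945), and Pcyt1b, of phosphatidylcholine synthesis (0.943). The median levels of these genes ran from 17.5 CPM for Spink8 to 5068 CPM for Chga. Rhcg was at 0 to 0.661 CPM in the 5 low libraries and was 18.4 to 212 CPM in the other 45.

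For Gcm2 the closest were Kl (0.987), Rhcg (0.984), Sycp2l (0.976) and the mucolipin channel gene Mcoln3 (0.975). Casr had other company. Its closest were Myh10, the gene of a non-muscle myosin heavy chain (0.967), Foxl2os (0.944), the laminin chain gene Lama1 (0.933) and Ccbe1 (0.921), and Pth and Gcm2 were not among its first 4. Foxl2os, Lama1 and Ccbe1 were low genes, with medians of 3.01, 3.01 and 1.46 CPM. In the 5 low libraries Myh10 was 8.65 to 80.2 CPM, against 28.6 to 528 CPM in the others, ranges that overlapped over both sets pooled. Outside the second set it was 63.2 to 80.2 CPM in the low libraries, and the lowest of the others there was 112.6 CPM. In the second set the low library had 8.65 CPM and the lowest of the others 28.6 CPM.

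The transcription factors that act with Gcm2 in the gland's development tracked Pth unevenly. Gata3 had a rho with Pth of 0.912 over the same 50 libraries. Pax9 (0.733) and Pax1 (0.722), which pattern the pharyngeal pouches, were lower, whereas Eya1 (0.218), Six4 (0.0937), Tbx1 (0.0776) and Hoxa3 (−0.0314) were near 0 or weak. Sox3 did not pass the count filter. None of the 9 other factors that passed was called in the 5 comparisons with RW. Between the sets 2 of them, Hoxa3 and Pax9, were lower in the second (log2 fold changes −1.89 and −0.99, edgeR adjusted p = 2.76e-06 and 0.0291), while 29.9% of all genes were lower there.

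Hormone relatives and receptors were scarce. Pth1r, the receptor through which parathyroid hormone acts on bone and kidney, had a median of 2.89 CPM, and Pthlh, which encodes the related hormone PTHrP, 0.781 CPM. Pth2 and Pth2r did not pass the filter. Neither Pth1r (rho −0.203) nor Pthlh (rho −0.129) followed Pth. Pth1r was lower after aN1aN2aN3 than after aJ1aJ2 in the second set (−1.06, SE 0.24, edgeR adjusted p = 0.0111), and it was called in none of the other 6 comparisons.

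Genes that carry the calcium signal or the feedback on the gland split in the same way. Kl and Vdr, the vitamin D receptor gene (rho 0.834 with Pth), moved with Pth. The G protein genes Gna11 (−0.0756) and Gnaq (−0.0581), the adaptor genes Ap2s1 (0.00667) and Ap2m1 (0.0999), Rxra (−0.116) and Fgfr1 (0.0157) did not, and Cyp24a1 was not tested. In the 5 comparisons with RW, 0 of the 8 tested genes besides Casr were called. Their median log2 fold change lay between −0.10 and 0.08 there, against −0.07 to 0.01 over all genes. Between the sets 6 of the 8 were called, 1 higher and 5 lower, and the lower ones included Vdr (−1.23, edgeR adjusted p = 0.0298), Rxra (−1.26, edgeR adjusted p = 0.0150) and Gna11 (−0.69, edgeR adjusted p = 0.000629). Over all genes 64.0% were called there, so this count says nothing particular to the list.

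Of the 11 genes of prohormone processing and secretory granules, Chga alone followed Pth. The other 10 had a rho between −0.146 for Cpe and 0.0631 for Pcsk2, including Furin (0.0448) and Pcsk7 (−0.00687), both proprotein convertases. None of the 11 was called in the comparisons with RW. In the second set Chgb (1.69), Pcsk2 (1.51) and Scg2 (1.24) were higher after aN1aN2aN3 than after aJ1aJ2, with edgeR adjusted p of 0.00293, 0.00558 and 0.0107. That is 3 of 11, in a comparison where 19.6% of all genes were called and 9.19% were higher. Calca was higher in the same comparison, and Chga, at 1.22 (SE 1.01, edgeR adjusted p = 0.418), was not called.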

How the data were processed

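Per the labels, total RNA of bulk thyroid was sequenced as single-end reads. The authors deposited read counts per gene, whole numbers without normalization, and FPKM values scaled to length and depth. The submitters' processing notes name GSNAP and limma. The labels and notes used here give neither their roles nor the genome build, annotation or strand setting of the counts. Ensembl IDs were matched to symbols for 52403 of 52636 genes (GENCODE M21), and the exons of the 3 genes overlap 0 other genes there. Column names gave each library's sample, with 0 columns left over.

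Counts were tested with edgeR 4.0.16 in R 4.3.3 (TMM, filterByExpr with minimum count 10 and total 15, glmQLFit robust, two-sided, Benjamini-Hochberg over all genes tested, threshold 0.05). The 3 groups at 15 hours, the 3 at 5 days, and each 7-day set were fitted separately, the set comparison on all 20 seven-day libraries and changes with time on all 50. SE came from the F statistic. On simulated counts for the aJ1aJ2 comparison at 15 hours (19084 genes), 82% of 200 genes changed 4-fold were recovered. The simulation gave every gene the same dispersion (spread beyond counting error) and changed only well-counted genes. Pth, Gcm2 and Casr varied far more than the median gene, so the 82% is no measure of what could be detected for them. Alternatives were DESeq2 1.42.0, limma 3.58.1 (limma-trend) on log2(FPKM + 0.1) or log2(FPKM + 1), RLE scaling, no filter, other sets of libraries, and exact permutation of 252 splits of 10 libraries.

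The ratio of FPKM scaling to size factor was 0.990 to 1.02 in 30 libraries and 1.17 to 1.20 in 20, namely every library taken at 5 days plus the aN1aN2 group at 15 hours. Named genes were the 8 most like Pth and the 4 most like Gcm2 and Casr, and up to 4 of the most abundant genes of each list, with others named after their values were seen. The genes and lists were chosen with earlier results of these data known. Correlations, ratios and length bins without the 5 low libraries, and fits without them, were added after seeing the data. Some genes of the lists are not reported here by name.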

Additional observations from a re-analysis of the deposited data

Results flagged for a closer look

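There were 30 checks (3 genes in 10 groups of 5 libraries, on log2(CPM + 0.5)). In 9 of them a library's gap to its nearest neighbour exceeded Dixon's 95% limit of 0.710 of the group's range. Chance gives about 1 in 20 for independent checks. These checks are not independent, since the same library was often marked in more than 1 gene and the genes moved together. The lowest library was the one apart in all 9. At 5 days replicate 4 of aJ1aJ2 stood apart in all 3 genes, with 10.6 CPM of Pth, 0.150 CPM of Gcm2 and 28.8 CPM of Casr. Replicate 1 of aJ1aJ2 in the first 7-day set also did so in all 3, with 2.54 CPM of Pth, 0.113 CPM of Gcm2 and 31.1 CPM of Casr. In the second 7-day set replicate 3 of aJ1aJ2 stood apart in Pth (73.5 CPM) and Gcm2 (0.197 CPM), and its Casr, 8.10 CPM, did not exceed the limit. RW replicate 5 of the first 7-day set stood apart in Casr alone, at 39.3 CPM. The low RW replicates 3 and 4 at 5 days were not marked, since they are near each other in Pth and Gcm2.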

How the results depend on the processing

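Over the members' fold changes, relations and spreads, 502 of the alternative values kept direction and side of the threshold, 55 changed direction, 8 lost and 5 gained a call. Direction changes were small or in uncalled results. For aJ1aJ2 against RW at 15 hours, Pth was −0.071 with the replicate block, −0.027 on FPKM with either pseudocount, −0.055 by exact permutation and −0.018 with unscaled CPM. Gcm2 was −0.15, −0.12, −0.084, −0.15 and −0.11 in that order (FPKM with pseudocounts 0.1 and 1). Casr after aN1aN2 at 15 hours was 0.016 without the count filter. Without the low libraries, aN1aN2 at 5 days gave −0.56 for Pth, −0.51 for Gcm2 and −0.41 for Casr. For aN1aN2aN3 against aJ1aJ2, Pth was 0.87 and 0.86 on FPKM, 0.89 by exact permutation and 0.97 with unscaled CPM. Gcm2 between the sets was −0.028 with the replicate block, −0.048 and −0.057 on FPKM and −0.10 by exact permutation. As deviations from group means, r over all 50 libraries was −0.0834 for Casr with Calca and 0.0760 for Pth with Tg. With the 45 libraries of at least 20 Gcm2 counts it was 0.0196 and −0.0865. The cause was not tested.

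Calls changed as follows. Gcm2 in the first 7-day set was −1.91 by exact permutation on unscaled CPM (p = 0.0476). Between the sets, Pth was called by DESeq2 (2.53, adjusted p = 0.0334) and without the low libraries (2.51). Casr was not called without the count filter (−1.82, edgeR adjusted p = 0.0539), with the replicate block (−1.80, edgeR adjusted p = 0.0630) or by exact permutation on unscaled CPM (−1.44, p = 0.119).

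Leaving out each library in turn gave, for Pth, Gcm2 and Casr, −0.36 to 0.49, −0.42 to 0.32 and −0.54 to 0.054 for aJ1aJ2 at 15 hours, and −0.31 to 0.26, −0.23 to 0.34 and −0.38 to 0.19 for aN1aN2. At 5 days aN1aN2 gave −0.18 to 0.62, −0.16 to 0.69 and −0.19 to 0.33. Between the sets the ranges were 2.18 to 2.86, −0.57 to 0.37 and −2.25 to −1.54. In the 3 other comparisons no sign changed.

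Counts of genes called over all genes depended on the tool. aJ1aJ2 at 15 hours had 106, against 18 on FPKM (pseudocount 1), 36 with the block and 312 with DESeq2. aN1aN2 at 15 hours had 311, against 186 with the block and 941 with DESeq2. At 5 days aJ1aJ2 had 33, against 0 with only its own groups and 468 with DESeq2, and aN1aN2 had 0, against 671 in a fit of all 50 libraries. In the first 7-day set 0 became 473 with DESeq2, and in the second 3614 became 2100 with the block. Same-numbered libraries did not deviate together in every pair: the lowest r of the 5 pairs was below 0 in all 7 comparisons, though 4 of 5 pairs were above 0.1 for aN1aN2 at 15 hours (up to 0.783) and for aJ1aJ2 at 5 days (up to 0.695). The numbers were therefore not taken as pairs, and the block changed no other call of the 3 genes. FPKM values were not used for aN1aN2 at 15 hours, across blocks. Below about 20 counts, Gcm2 levels rest on few reads.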
